A study of Homo sapiens with 3 samples.

Results

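The homeobox genes described here were selected by name. They comprise the HOXA, HOXB, HOXC and HOXD genes, the PBX, MEIS, PKNOX, IRX, CDX, DLX, MSX, LHX, CUX, SATB and ZFHX families, SIX4, SIX5 and their family, and HDX, PITX1, PROX1, ADNP and ZEB1. This choice gave 64 of the 12582 genes with a value, carried by 83 of 20104 transcripts, of which 79 are coding (RefSeq NM accessions) and 4 are non-coding (NR accessions). The rule takes 92 protein-coding genes of the RefSeq annotation, and the 28 without a value, CDX1, HOXA2 and HOXD3 among them, were not analysed here. The cells were SW480, an established line from a human colon adenocarcinoma. They were transduced with an shRNA against RBMS1, an RNA-binding protein (shRBMS1, 1 library), or with control shRNA (shControl, 2 libraries), and total RNA was taken 48 hours later. The hairpin of each control library was not given in the sources used here, and a single hairpin stands for the knockdown.

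Homeobox genes encode transcription factors that bind DNA through a homeodomain. HOX genes lie in the clusters A to D, and each is numbered by its place in the cluster. Low numbers act towards the head and high numbers towards the tail of the embryo. PBX, MEIS and PKNOX proteins, of the TALE class, bind DNA together with HOX proteins. In the gut, CDX2 specifies and maintains intestinal epithelium, and the posterior HOX genes mark the hindgut from which most of the colon derives.

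All values are log2 fold changes per transcript from the authors' deposited table, shRBMS1 over shControl, and for genes with several transcripts their median was computed here and used as the value of the gene. Values per library and sequencing depth were not analysed here, and with 1 knockdown library no value has a replicate check, an error or a p-value. The sign was set so that RBMS1 lies lower in shRBMS1, at −1.49, with transcripts at −1.36 and −1.62 per the authors' deposited table. Were the deposited ratio inverted, all signs given here would be opposite. In such bulk RNA, fewer cells of a kind and less RNA per cell cannot be told apart. Of 8 markers of colon epithelium 5 had a value, CDX2, VIL1, EPCAM, KRT8 and KRT18, and of 14 markers of leukocytes, fibroblasts and endothelium only CD68 did.

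RBMS1 binds A+U-rich RNA that includes AUAUA, so the annotated 3′ UTRs of the members were searched for ATATA, overlapping matches counted. Single sites are shown for HOXA3, HOXA7 and HOXA13, the members of the lowest cluster with values near or below −0.98, for HOXD8 and HDX, with values above 1, and for the coding transcript of PBX3, whose own value is close to 0. They are written 5′ to 3′ on the transcript strand (GENCODE 29, hg38), with the site in capitals. They lie at chr7:27107200-27107224 (minus strand, HOXA3), chr7:27154258-27154282 (minus, HOXA7), chr7:27196785-27196809 (minus, HOXA13), chr2:176131929-176131953 (plus, HOXD8), chr9:125966252-125966276 (plus, PBX3) and chrX:84321859-84321883 (minus, HDX).
HOXA3: tgaaagagaaATATAattcctttaa
HOXA7: tcgaaaaataATATAtttattccaa
HOXA13: ggtttatcttATATAaaccaaggac
HOXD8: taataattgcATATAaaatgcttta
PBX3: aaaaagtacaATATAcactaaacct
HDX: gttggagggaATATAtgatacagtc

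The 64 homeobox genes selected here lay, as a group, somewhat lower in shRBMS1 than in shControl, and more so in the HOX clusters than outside them. The median of the 64 genes was −0.19, or 87.9% of control, against 0.01 over all 12582 genes. Of the 64 genes, 48 (75%) lay below 0, whereas 48.5% of all genes did. The 33 homeobox genes outside the rule that had a value did not share this, with a median of 0.02 and 16 (48.5%) below 0. At or below −0.5 lay 23 of the 64 (35.9%), against 12.9% of all genes. Among genes, values at or past 1 in either direction were about as common as in the whole table. At or above 1 lay 4 genes, HDX, HOXD8, MEIS2 and MEIS3 (6.25%, against 3.95% of all genes), and at or below −1 lay 3, HOXA3, HOXA13 and PBX3 (4.69%, against 3.96%). PBX3 is among them by its non-coding transcripts alone, and its coding transcript was at 0.01 per the authors' deposited table. Of the 83 transcripts, 5 lay at or above 1 (6.02%, against 8.27% of all transcripts) and 11 at or below −1 (13.3%, against 7.86%).

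**Figure D1:**
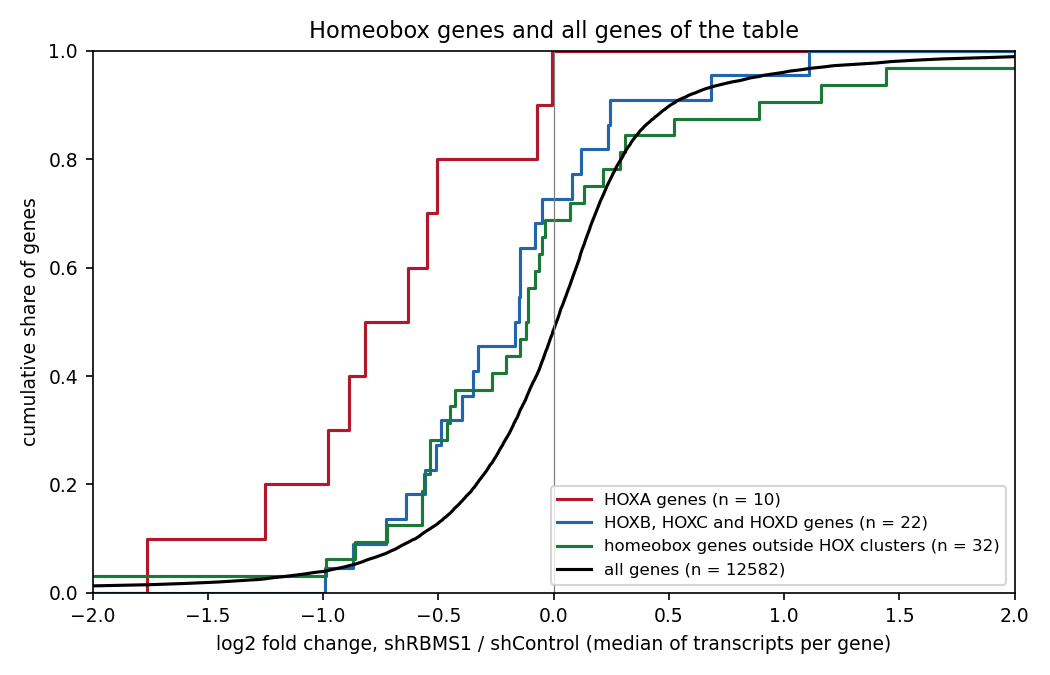
Cumulative share of genes (y axis) at or below a log2 fold change, shRBMS1 over shControl (x axis, shown from −2 to 2), for 10 HOXA genes, 22 HOXB, HOXC and HOXD genes, 32 homeobox genes outside the clusters and all 12582 genes. Between −1.76, the value of its lowest gene, and 0 the HOXA curve lies left of the others, and it reaches 1 below 0. The curves of the other homeobox genes lie left of that of all genes at 0.

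The HOX clusters held 32 of the 64 genes, out of 39 HOX genes in the annotation. Their median was −0.37, or 77.2% of control, and 26 of 32 (81.3%) lay below 0. The HOXA cluster on chromosome 7 (27092993 to 27200091, hg38) stood lowest, with all 10 of its genes below 0, a median of −0.72 or 60.5% of control, and 8 of 10 at or below −0.5. The 22 genes of the other clusters had a median of −0.16, with 16 below 0.

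Within HOXA, HOXA3 was lowest at −1.76, or 29.4% of control, per the authors' deposited table. HOXA3 patterns the neck and the pharyngeal arches. HOXA13, the most posterior gene of the cluster and a factor of hindgut and limb, lay at −1.25, or 42.0% of control, per the authors' deposited table. HOXA7 lay at −0.98 and HOXA6 at −0.82 per the authors' deposited table. HOXA5, HOXA11 and HOXA10 stood at −0.63, −0.55 and −0.51 per the authors' deposited table. HOXA9, known for its part in leukaemia with MEIS1, was at −0.07 and HOXA4 at −0.01 per the authors' deposited table, close to control. The values did not follow gene order, with HOXA4 near 0 beside HOXA3.

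In HOXB, on chromosome 17 (48528526 to 48728750), values lay between −0.64 and 0.24, with a median of −0.15 and 6 of 9 genes below 0. HOXB5 was lowest at −0.64, then HOXB3 at −0.49 and HOXB13, a factor of the posterior gut and prostate, at −0.40 per the authors' deposited table. HOXB6, HOXB8 and HOXB9 lay at −0.17, −0.15 and −0.14 per the authors' deposited table. Above 0 were HOXB7 at 0.08, HOXB4, a factor of blood stem cells, at 0.12 and HOXB2 at 0.24 per the authors' deposited table. None of the 9 reached 1 in either direction.

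The HOXC cluster, on chromosome 12 (53938831 to 54056030), ran from −0.99 to 0.68 with a median of −0.43 and 6 of 8 genes below 0. HOXC13, a factor of hair and nail, was lowest at −0.99, then HOXC11 at −0.87, HOXC6 with a median of −0.56 and HOXC10 at −0.51 per the authors' deposited table. HOXC8 and HOXC4 stood at −0.35 and −0.05, whereas HOXC9 was at 0.24 and HOXC5 at 0.68 per the authors' deposited table. The median of HOXC6 joins transcripts on both sides of 0. NM_004503, with its GENCODE 29 start at 54028358, was at −1.51, and NM_153693, which starts further upstream at 54015897, at 0.39 per the authors' deposited table. Transcripts of HOXC4, HOXC5 and HOXC6 overlap, so how reads were divided between them bears on these values and was not tested.

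HOXD, on chromosome 2 (176087487 to 176190907), had 5 of its 9 genes with a value. HOXD8 was the only HOX gene at or above 1, at 1.11 or 215% of control, and its transcripts NM_001199746 and NM_001199747 lay close together at 1.03 and 1.18 per the authors' deposited table. Its neighbour HOXD9 lay at −0.73, then HOXD10 at −0.33, HOXD13, a limb and hindgut factor, at −0.15 and HOXD11 at −0.08 per the authors' deposited table.

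By paralogue number, the posterior genes were the most uniform in sign. Of the 14 genes numbered 9 to 13, 13 lay below 0, with a median of −0.45 and HOXC9 as the exception. Of the 14 numbered 4 to 8, 10 lay below 0 with a median of −0.16, and of the 4 numbered 1 to 3, 3 did with a median of −0.69. All 4 genes numbered 13 lay below 0, from −1.25 for HOXA13 to −0.15 for HOXD13 per the authors' deposited table. Paralogues of 1 number could differ widely. Among those numbered 5, HOXA5 and HOXB5 lay at −0.63 and −0.64 and HOXC5 at 0.68 per the authors' deposited table.

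**Figure D2:**
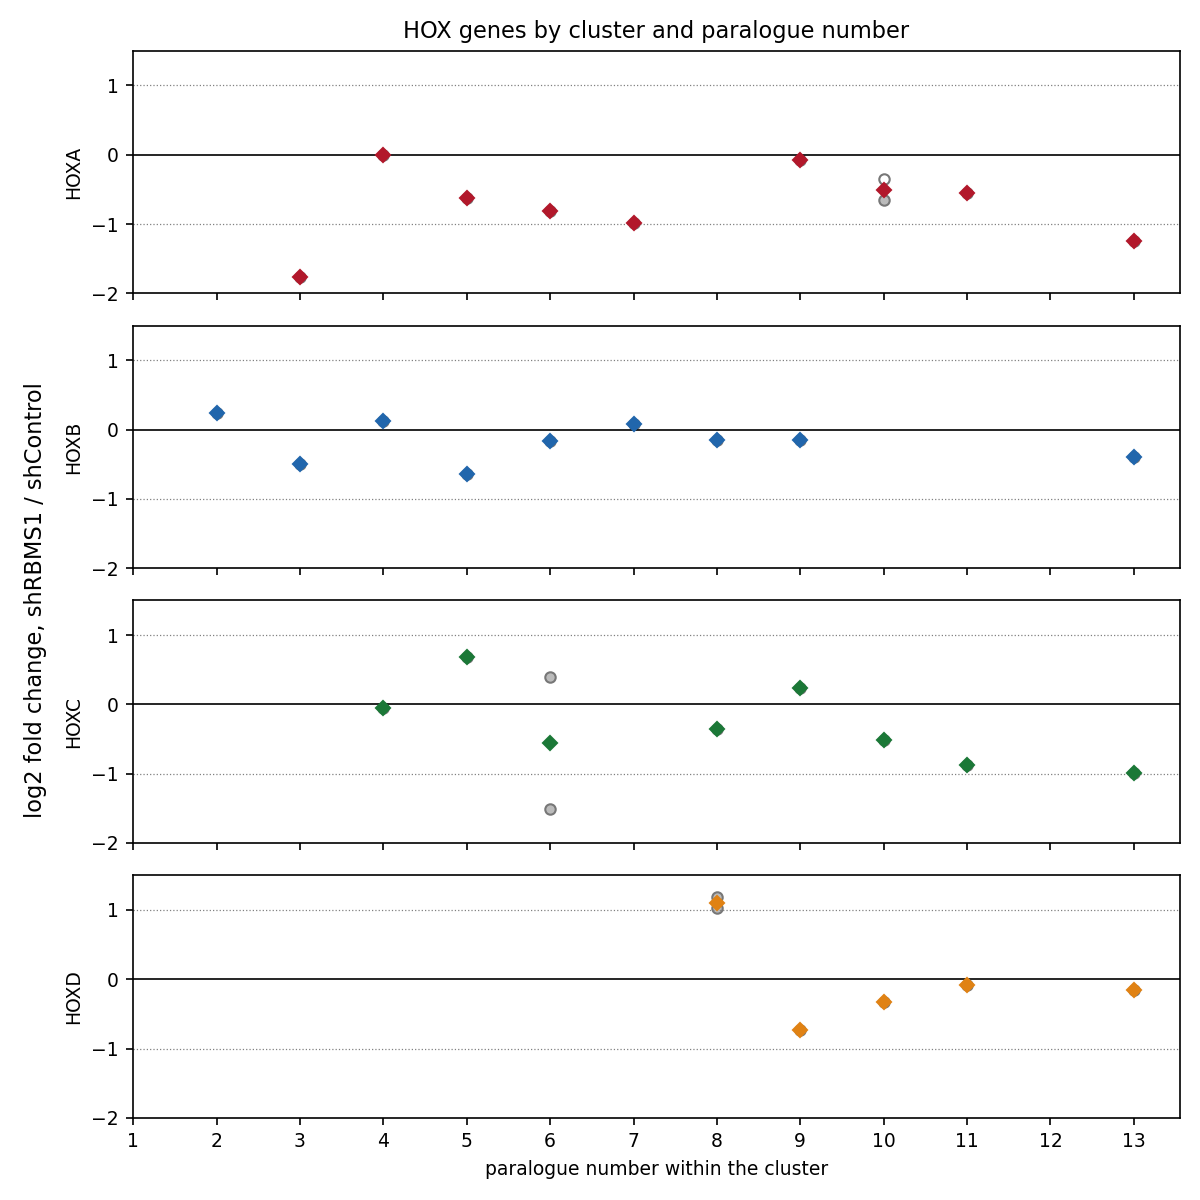
Log2 fold change, shRBMS1 over shControl (y axis), of 31 of the 32 HOX genes by paralogue number (x axis), 1 panel per cluster. Coloured diamonds are gene medians, grey circles single transcripts (open where non-coding), dotted lines mark 1 and −1. The 9 HOXA diamonds shown lie below 0, down to −1.76 for HOXA3, and HOXD8 stands alone above 1.

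Other genes inside the clusters mostly lay below 0 as well. Of 25 listed cluster non-coding RNAs 12 had a value, with a median of −0.34 and 9 (75%) below 0. Over all 2110 non-coding transcripts of the table, the median was 0.13 and 40.4% lay below 0. Most of the 12 were close to control, 9 of them within 0.5 of 0. Their list was chosen with earlier results of these data known. HOXC13-AS, antisense to HOXC13, was lowest at −1.36 and HOXC-AS3 highest at 0.41 per the authors' deposited table. HOXA11-AS lay at −0.91 beside −0.55 for HOXA11, and HAGLR, of the HOXD cluster, at −0.79 per the authors' deposited table. HOTAIR, the HOXC transcript known to bind Polycomb proteins, had 3 transcripts, at −9.06, −0.41 and −0.01 per the authors' deposited table. Its median of −0.41 therefore leaves out of view 1 transcript about as low as the non-coding ones of PBX3. HOTAIRM1, of the HOXA cluster, had transcripts at −0.44 and −0.11 per the authors' deposited table. Whether strand was used in counting was not given in the sources used here, and without strand a HOX gene and its antisense partner cannot be told apart. PRAC2, a gene of colon and prostate beside HOXB13, was at −1.80 per the authors' deposited table.

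Genes flanking HOXA, HOXB and HOXC lay mostly below 0, and those flanking HOXD mostly above it. For HOXA, HOXB, HOXC and HOXD the shares below 0 were 75%, 67.9%, 67.7% and 16.7%, against 48.5% of all genes. At or below −0.5 lay 3 of 8, 5 of 28, 5 of 31 and 0 of 6, against 12.9% of all genes. Within 1 Mb of HOXA, 8 genes had a median of −0.21 with 6 below 0, from JAZF1 at −0.82 to CBX3 at 0.27 per the authors' deposited table. Medians of flanking genes were −0.08 over 28 genes for HOXB, −0.15 over 31 for HOXC and 0.28 over 6 for HOXD, with 19, 21 and 1 of them below 0.

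**Figure D3:**
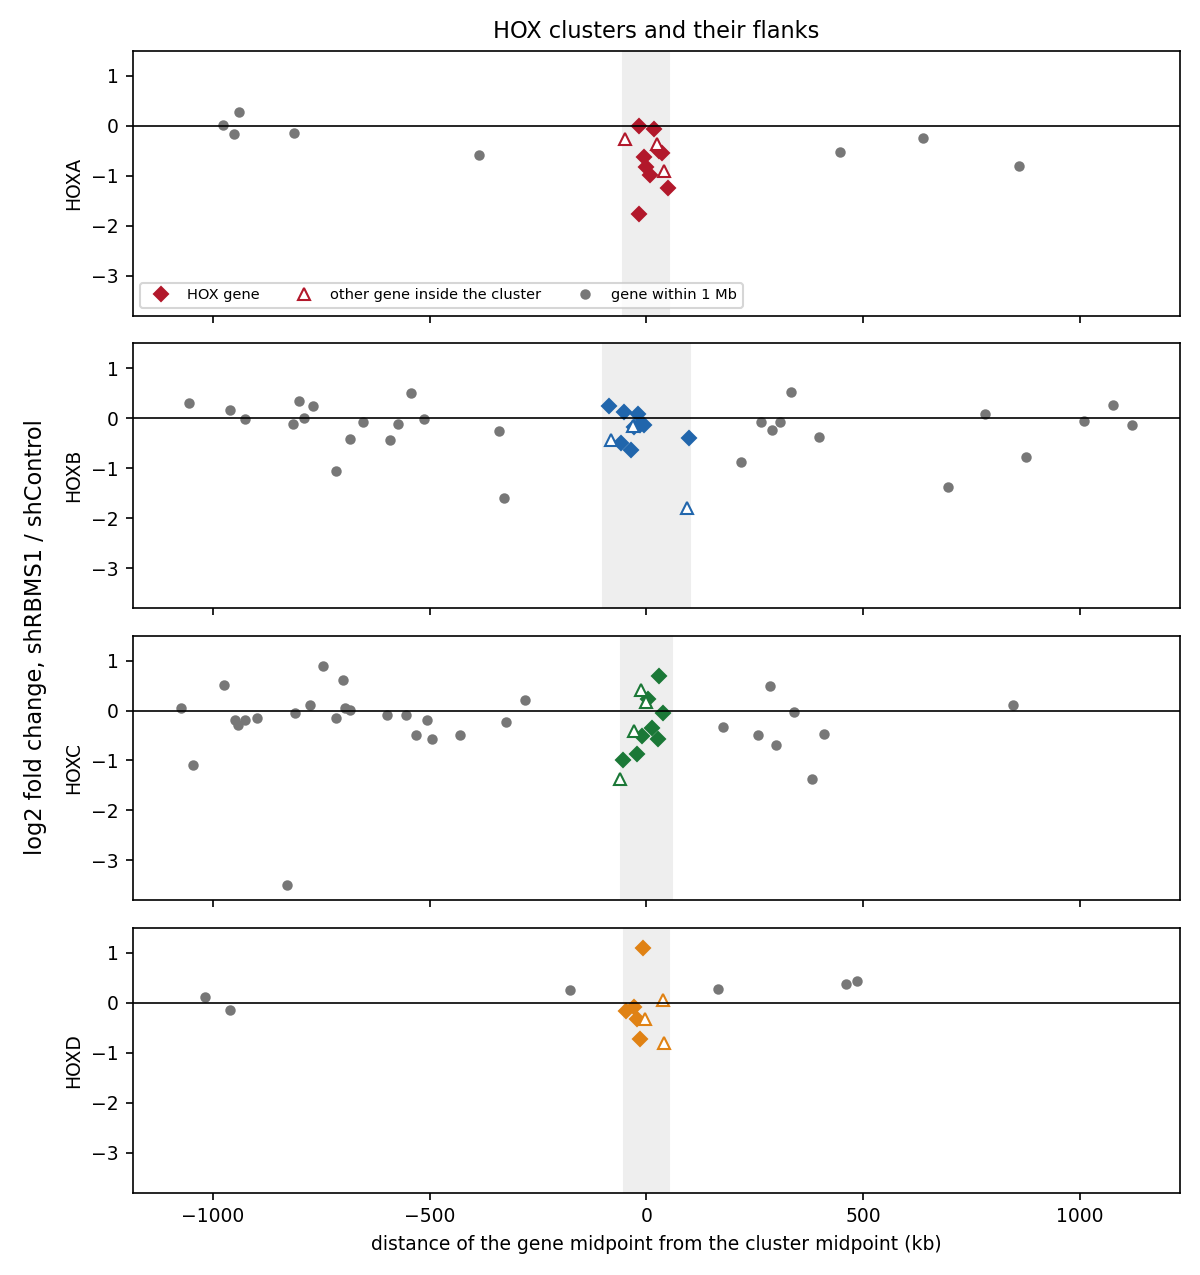
Log2 fold change, shRBMS1 over shControl (y axis), of genes by the distance of their midpoint from the midpoint of each HOX cluster (x axis, kb). Diamonds are 31 of the 32 HOX genes, open triangles other genes inside the cluster (shaded), grey circles genes within 1 Mb of it. Around HOXA 6 of 8 flanking genes lie below 0, and around HOXD 1 of 6 does.

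HOX transcripts were also richer in GC than most, and values in the whole table varied with GC content. The median GC content was 54.2% over 35 linked HOX transcripts and 49.0% over all 17449 linked coding transcripts. Of the 35, 27 (77.1%) fell in the bins numbered 6 to 9 of 10 equal bins by GC content. In these bins the median of all coding transcripts ran from −0.03 to −0.09, and 53.7% to 59.1% of them lay below 0. The HOXA transcripts had a median GC content of 54.1%, close to the 54.4% of the other HOX transcripts. The part of GC content in the low HOX values was not tested.

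**Figure D4:**
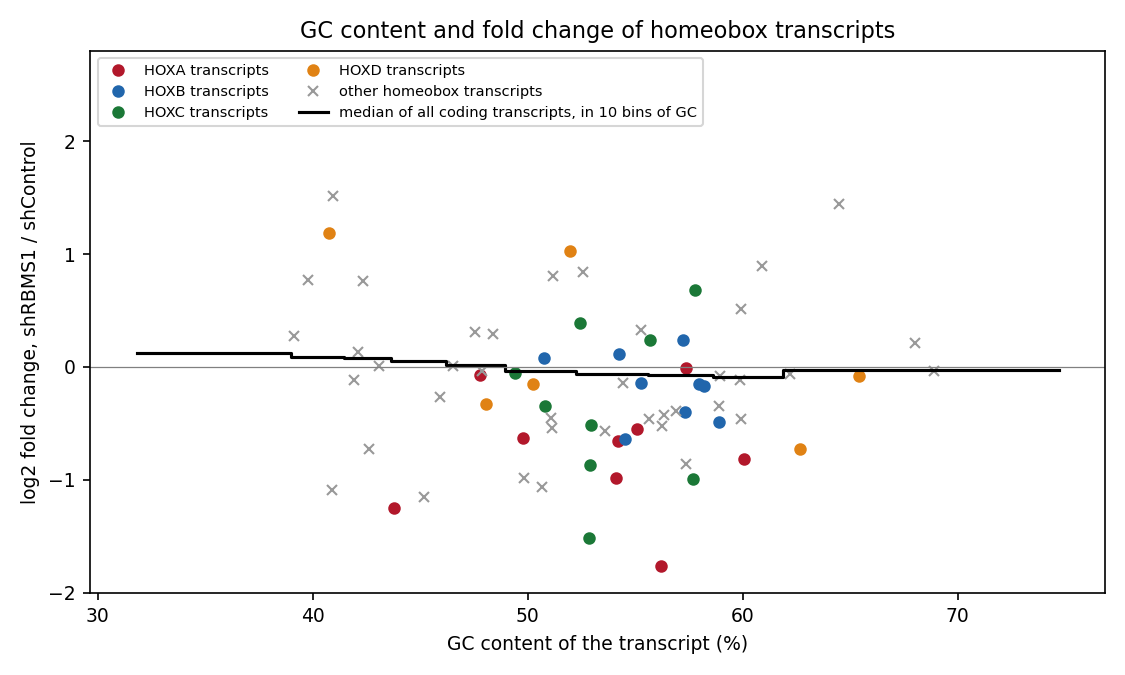
Log2 fold change, shRBMS1 over shControl (y axis), of coding homeobox transcripts against their GC content in % (x axis), coloured by HOX cluster, with crosses for members outside the clusters (HDX, at 7.46, lies off the scale). The black line is the median of all coding transcripts in 10 bins of GC content. It lies between −0.09 and 0.12, while HOXA points lie down to −1.76.

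A 3′ UTR with at least 1 ATATA was found for 17 of 35 HOX transcripts (48.6%), against 53.3% of 17179 coding transcripts with a 3′ UTR. Those 17 had a median of −0.33 and the other 18 a median of −0.37. In HOXA, 7 transcripts with a site had a median of −0.98 and 4 without one −0.64, and outside HOXA 10 with a site had −0.10 and 14 without −0.26. The difference thus ran in opposite directions in HOXA and in the other clusters, and the part of these sites in the values was not tested. HOXA13 has 9 matches and lay at −1.25, but HOXA9 with 6 was at −0.07, and HOXA6 with 0 at −0.82 per the authors' deposited table. HOXD10, whose 3′ UTR holds an AT repeat with most of its 15 matches, was at −0.33 per the authors' deposited table.

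Promoters were compared for the members at the ends of the HOX range. TTTATNG, a core of the kind bound by CDX and posterior HOX proteins, was searched on both strands of the windows from 250 bases before to 50 after each annotated start. It occurred in 9.73% of all 35116 windows and in 7 of 21 HOX windows (33.3%), of which 20 are distinct. These windows cover only 14 HOX genes, none of HOXB, and 6 of the 14 had a match. HOXA3 and HOXA10 each have more than 1 window, and HOXC4 and HOXC5 share 1 window and its match. The 2 shares therefore do not compare HOX genes one by one with other genes. The reverse complement of TTTATNG can overlap a TATA box (TATAAA), as it did in 2 of 13 matches among the members, in HOXA9 and HOXA10. Of 10 HOX windows within 100 bases of the annotated start of a coding transcript with a value, 3 held it, those of HOXA3, HOXA9 and HOXD8. Starts of non-coding transcripts were not compared. These transcripts lay at −1.76, −0.07 and 1.18 per the authors' deposited table, so the match was found at a low value, a value near 0 and a high one. The PBX and HOX composite TGATNNAT was in 1 of 21 HOX windows (4.76%), against 7.40% of all windows. The windows of HOXA3 and HOXD8 are shown as the lowest and highest of these, 5′ to 3′ with TTTATNG matches in capitals, at chr7:27119546-27119845 (minus strand) and chr2:176129455-176129754 (plus strand), from RefSeq (GRCh38.p14, the assembly of hg38).
HOXA3: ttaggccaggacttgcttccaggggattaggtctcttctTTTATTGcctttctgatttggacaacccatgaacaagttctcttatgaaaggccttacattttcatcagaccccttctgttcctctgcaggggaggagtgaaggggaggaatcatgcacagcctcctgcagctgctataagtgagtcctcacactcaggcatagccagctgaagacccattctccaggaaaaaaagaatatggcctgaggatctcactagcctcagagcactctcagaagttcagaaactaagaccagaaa
HOXD8: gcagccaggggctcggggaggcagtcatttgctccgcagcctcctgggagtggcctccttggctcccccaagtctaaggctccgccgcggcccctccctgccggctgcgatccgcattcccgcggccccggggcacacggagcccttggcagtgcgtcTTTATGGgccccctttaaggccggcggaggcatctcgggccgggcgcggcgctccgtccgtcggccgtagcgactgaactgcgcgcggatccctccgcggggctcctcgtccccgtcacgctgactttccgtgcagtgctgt

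Among the TALE partners of HOX proteins, MEIS2 and MEIS3 lay higher in shRBMS1, and PBX3 had the lowest value of all members. MEIS3 was at 1.44, or 272% of control, from 1 transcript per the authors' deposited table. MEIS2 had transcripts at 1.52 and 0.80 per the authors' deposited table, both above control. MEIS1 was at 0.13, PBX2 at −0.15 and PKNOX1, which binds PBX proteins, at −0.27 per the authors' deposited table. IRX2 and IRX5, Iroquois factors of the same class, were at −0.20 and −0.08 per the authors' deposited table.

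Coding and non-coding transcripts could be compared in 3 members, PBX3, PBX4 and HOXA10. For PBX3, on chromosome 9 at 125747373 to 125967377, the coding NM_006195 stood at 0.01, whereas the non-coding NR_024122 and NR_024123 stood at −9.34 and −9.29 per the authors' deposited table. The gene's value of −9.29 thus rests on its non-coding transcripts alone, while its coding transcript had a value close to 0. For PBX4 the coding transcript was at 0.51 and the non-coding one at −0.61, a gap of 1.12 per the authors' deposited table. HOXA10 ran the other way by a small margin, with its coding transcript at −0.66 and its non-coding one at −0.35 per the authors' deposited table.

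Gaps of this kind were common in the table. Of 589 genes with both kinds of transcript, 217 (36.8%) had medians at least 1 apart, the non-coding side lower in 80 and higher in 137. Gaps of at least 9, as in PBX3, were found in 9 genes, in 5 of them with the non-coding side lower. At or below −5 lay 1.33% of all non-coding and 1.40% of all coding transcripts. GENCODE 29 links NM_006195 and NR_024122 of PBX3 to the same transcript model, and likewise both transcripts of PBX4. The way reads were divided between overlapping transcripts was not given in the sources used here, and a level near 0 in shRBMS1 cannot be told apart from a shift of reads between transcripts.

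**Figure D5:**
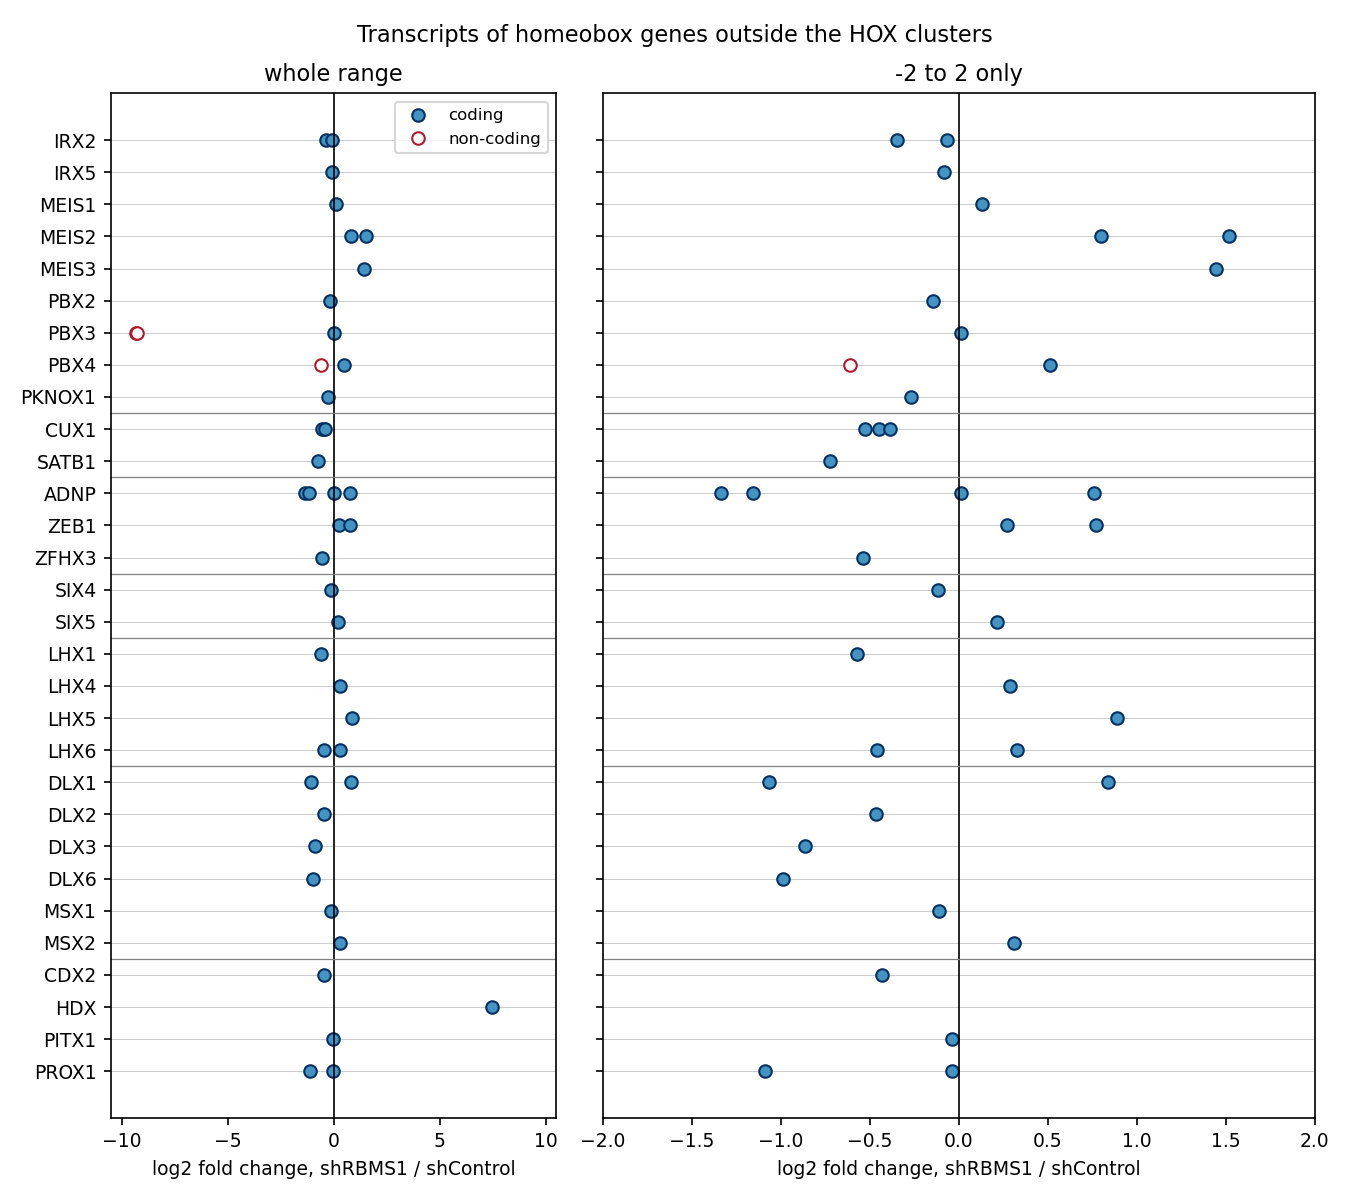
Log2 fold change, shRBMS1 over shControl (x axis), of every transcript of 30 homeobox genes outside the HOX clusters, over the whole range (left) and from −2 to 2 (right). Filled circles are coding and open circles non-coding transcripts, and horizontal lines separate the families. PBX3 has 1 coding transcript at 0.01 and non-coding ones near the left end, and HDX stands alone at 7.46.

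HDX had the highest value of all members, at 7.46 from the single coding transcript NM_001177478 per the authors' deposited table. It lies on chromosome X at 84317878 to 84502453 and encodes a divergent homeobox protein. Values this far from 0 were rare, with 2.02% of all transcripts and 3 of the 83 homeobox transcripts (3.61%), those of HDX and PBX3, at or past 5 in either direction. No level stands beside this value, and a level near 0 in shControl cannot be told apart from strong expression in shRBMS1.

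CDX2, the factor of intestinal identity, lay below control. It was at −0.43, or 74.3% of control, from 1 transcript per the authors' deposited table. SATB1, a chromatin organiser, was at −0.72 per the authors' deposited table. The transcripts of CUX1, a CUT-class factor, agreed within 0.14 at −0.53, −0.45 and −0.39 per the authors' deposited table. Of a list of 32 genes that CDX2 drives or that mark intestinal epithelium only 4 had a value. All 4 lay below 0, against 48.5% of all genes, but only 1 lay at or below −1 (25%, against 3.96%). That was VIL1, which encodes villin of the brush border, at −2.33 per the authors' deposited table. The others were all KLF genes, KLF9 at −0.54, KLF5 with a median of −0.47 and KLF4, the highest, at −0.30 per the authors' deposited table. This list was chosen with earlier results of these data known. Whether CDX2 bears on these values was not tested. PROX1, a factor of colon tumour progression, had transcripts at −1.09 and −0.04 per the authors' deposited table.

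ZEB1, a repressor of epithelial genes, lay above control in both transcripts, at 0.27 and 0.77 per the authors' deposited table. Of 25 listed epithelial genes that ZEB1 represses 22 had a value, with a median of −0.38 and 19 (86.4%) below 0, against 48.5% of all genes. At or below −1 were 5 of the 22 (22.7%, against 3.96% of all genes), and 0 were at or above 1 (against 3.95%). MAL2, a membrane trafficking protein, was lowest at −1.46, with CLDN7 at −1.32, MAPK13 at −1.13, KRT18 at −1.09 and CRB3 at −1.04, and TJP3 highest at 0.85 per the authors' deposited table. KRT18 has transcripts at −2.17 and −0.02 per the authors' deposited table. The list was chosen with earlier results of these data known. These values come from the same libraries as those of ZEB1, and whether ZEB1 bears on their values was not tested.

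Other members lay on both sides of 0. Over all 32 members outside the HOX clusters, 22 (68.8%) lay below 0, against 48.5% of all genes. At or below −0.5 lay 9 of these 32 (28.1%), against 12.9% of all genes. The zinc finger homeobox factor ZFHX3 was at −0.54, and ADNP, a chromatin protein, had transcripts at −1.34, −1.16, 0.01 and 0.76 per the authors' deposited table. Among DLX genes, which act in limb, jaw and forebrain, DLX6 was at −0.99, DLX3 at −0.86 and DLX2 at −0.46 per the authors' deposited table. DLX1 had transcripts at −1.06 and 0.84 per the authors' deposited table. MSX1 and MSX2, known targets of BMP signalling, were at −0.11 and 0.31 per the authors' deposited table. The LIM-homeobox genes went both ways, with LHX1 at −0.57, LHX6 at −0.07 (transcripts at −0.46 and 0.33), LHX4 at 0.29 and LHX5 at 0.89 per the authors' deposited table. SIX4 and SIX5 were at −0.12 and 0.21, and PITX1, a hindlimb factor, at −0.04 per the authors' deposited table.

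Transcripts of 1 gene disagreed about as often as elsewhere. A spread of more than 1 between transcripts was found in 7 of the 15 members (46.7%) that have several, against 49.3% of 4597 such genes in all. Among them were PBX3, ADNP, HOXC6, DLX1, PBX4 and PROX1, and in 7 of the 15 the transcripts lay on both sides of 0. The other 49 members rest on 1 transcript.

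Homeobox genes outside the rule had a median near 0. Of 95 such genes, 33 had a value, with a median of 0.02 and 16 below 0. PRRX1, a mesenchymal factor, was highest at 1.47 and CERS6, a ceramide synthase with a homeobox-like domain, at 1.25, against −0.94 for TLX1, the lowest, per the authors' deposited table. CERS6 has transcripts at −0.19 and 2.68 per the authors' deposited table. Of 32 chromatin regulators known to act on HOX clusters all 32 had a value, with a median of −0.14 and 21 (65.6%) below 0. At or below −1 were 4 (12.5%, against 3.96% of all genes), and 0 were at or above 1 (against 3.95%). KMT2A, the methyltransferase that keeps HOX genes active, was lowest at −3.50, from transcripts at −6.72 and −0.28 per the authors' deposited table. WDR5, of the same complex, had transcripts at −3.81 and 0.03 per the authors' deposited table. KDM6B, a demethylase of Polycomb-marked histones, was at −1.55 and BMI1, a Polycomb protein, at −1.22 per the authors' deposited table. The insulator protein CTCF had the highest median, 0.81, from transcripts at −0.22 and 1.84 per the authors' deposited table. For KMT2A, WDR5 and CTCF a shift between transcripts cannot be told apart from a change of the gene. Both lists were chosen with earlier results of these data known.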

How the data were processed

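SW480 cells gave 1 shRBMS1 and 2 shControl libraries of total RNA, and the labels' shRNA set the groups. Per the labels' protocols, ribosomal RNA was removed and libraries were made with a ScriptSeq v2 kit. Per the submitters' processing notes, STAR 2.5, Cufflinks, Cuffdiff and hg38 were used, with roles, settings and low-level filters not given in the sources used here. Deposited log2 fold changes per RefSeq transcript, made by the authors, were the values used. The header names neither base nor direction. Base 2 was taken because around values repeated 3 or more times, 20 transcripts were found at a distance of 1 (tolerance 1.5e-05), against 4 at ln 2 and 5 at log10 of 2.

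RefSeq accessions were matched to symbols of GRCh38.p14, which named 19818 of 20104 transcripts (98.6%), and 286 were left out of values per gene. Sequence, GC content and 3′ UTRs came from GENCODE 29, which linked 78 of 79 coding member transcripts. Values at or past 1 were counted without a test beside the same count over the table. The members and lists were chosen with earlier results of these data known. Some members are counted in the totals but not reported singly here. Named genes were the other members, RBMS1, and from each list the highest, the lowest and those past 1. Other cluster RNAs, flanking genes, PRAC2, KLF5 and KLF9 were named after their values were seen. Medians were also computed on simulated data, a permuted table with known shifts of the members, with no outcome given here. Python 3.11.15, pandas 2.3.3, numpy 2.4.6 and matplotlib 3.10.9 were used.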

Additional observations from a re-analysis of the deposited data

How the results depend on the processing

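Counts and medians were recomputed under changed thresholds, with each gene summarised differently, and after centring on the median of the table. Medians of the homeobox genes (−0.20 to −0.12) and of the HOX genes (−0.39 to −0.34) moved by less than 0.1 and kept their sign. HOX genes below 0 numbered 25 or 26 of 32, or 23 of the 28 with 1 transcript. All HOXA genes with a value stayed below 0 in each setting. The 16 homeobox transcripts at or past 1 became 41 (49.4%) at 0.5, 6 (7.23%) at 1.5 and 3 (3.61%) at 2, against 34.4%, 9.17% and 5.80% of all transcripts, above the share in the table at 0.5 and below it at 1.5 and 2. The 7 homeobox genes at or past 1 became 30 (46.9%) at 0.5 and 3 (4.69%) at 1.5, against 23.1% and 3.84% of all genes. Where only genes with 1 transcript were kept, 4 of 49 members were at or past 1, against 6.54% of all such genes. Coding and non-coding transcripts were at least 2 apart in 1 of the 3 members with both kinds, PBX3, against 14.8% of all genes with both kinds. With coding transcripts alone, or the least changed transcript, PBX3 stood at 0.012 in place of −9.29. The sign of 7 of the 15 genes with several transcripts, ADNP, DLX1, HOXC6, LHX6, PBX3 and PBX4 among them, depended on this choice, and centring turned no member. Leaving out a control library was not run, since values per library were not analysed here. No paired analysis was possible because the result comes from a table of fold changes with no value per library. Depth is unknown, so no count behind a value could be given.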
